A study of Caenorhabditis elegans with 12 samples.

Results

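The transcriptome described here is that of unexposed Caenorhabditis elegans at L4, the last larval stage before adulthood. Its members are the 3 control libraries among the 12 libraries of a series on AO168=O, a compound that was mixed into the agar of the 9 other libraries. The control worms were of the N2 strain, the Bristol wild type, and received none of the compound (0 ng/g). They still carried the solvent, 0.01% ethanol, which every group of the series received. Worms grew at 25 °C on OP50, a strain of Escherichia coli used as food, from the embryo for about 46 h. Each library held whole animals, about 1000 per sample, so all tissues were pooled. The series describes the replicates as independent biological replicates, and the labels place every library in batch 1. No group was set against another, so levels and their spread are given with no test, and exposed worms were not analysed here.

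L4 is the stage in which a worm finishes its larval body. The epidermis builds the adult cuticle, the outer coat of collagen that is replaced at every molt, while the vulva and the somatic gonad take shape. In hermaphrodites, the self-fertile sex that makes up nearly all of a wild-type culture, the germ line makes sperm in L4 and turns to oocytes around the passage to adulthood. The intestine, which digests bacteria and stores fat, does not yet make much yolk, because the vitellogenin genes that encode yolk proteins are mainly genes of the adult. Collagen genes, sperm genes and yolk genes are therefore used as markers of age within these hours of life.

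The libraries held 37884563, 41446642 and 37935484 counted reads for replicates 1, 2 and 3, called libraries 1, 2 and 3 below. Levels between genes are given as FPKM, the deposited counts per gene length and library size, and levels of one gene between libraries as CPM, counts per library size after TMM scaling. No pair of libraries agreed within counting noise. The chi-square over genes, divided by its degrees of freedom, was 47.3 for libraries 1 and 2, 43.01 for 2 and 3, and 114.0 for 1 and 3. It was computed from raw counts scaled by total count alone, so it includes shifts between libraries that TMM scaling removes. Spearman correlations of log2 CPM across genes, which are not independent replicates, were 0.984, 0.977 and 0.957 for the same pairs. Libraries 1 and 3 were thus farthest apart, with library 2 between them. The edgeR common dispersion of 0.0451 corresponded to a biological coefficient of variation of 21.2%.

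A gene was called detected where its mean FPKM over the 3 libraries was at least 1. This held for 14281 of 46987 annotated features (30.4%), and for 13500 of 19985 protein-coding genes (67.6%). Protein-coding genes took 98.6% ± 0.125 (SD, n = 3) of the counts. Levels fell off steeply: 10007 coding genes reached 5 FPKM, 1128 reached 100 FPKM and 147 reached 1000 FPKM. The 10 genes with the highest mean held 5.46% ± 0.109 (SD, n = 3) of the summed FPKM, the top 100 held 33.4% ± 1.22 and the top 1000 held 70.9% ± 1.70. It took 223 genes in library 1, 258 in library 2 and 270 in library 3 to reach 50% of the summed FPKM, so library 1 was the most concentrated.

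Translation and intestinal digestion led the list of abundant mRNAs. The first gene was asp-1, which encodes a cathepsin D-like aspartyl protease of the intestine (WBGene00000214, chromosome V, 19049562 to 19050752 in WBcel235). It stood at 7428 FPKM in library 1, 8023 in library 2 and 8173 in library 3, a mean of 7875 ± 394 (SD, n = 3), or 0.961% of the summed FPKM. The second was eef-1A.1, the elongation factor that brings aminoacyl-tRNA to the ribosome (chromosome III, 6970026 to 6971712), with 7209.5 FPKM, 6389 and 6234 in libraries 1, 2 and 3. The libraries ranked these genes in opposite ways, asp-1 lowest in library 1 and eef-1A.1 highest there. Among the first 15 genes were 9 named for cytosolic ribosomal proteins, from rps-25 (4274 FPKM ± 520.0) and rpl-10 (3881 ± 329) to rpl-2 (3389 ± 308), and Y37E3.8, the gene of ribosomal protein uL15 (3790.0 ± 511). The others included ant-1.1, the carrier that exchanges ADP for ATP across the inner mitochondrial membrane (4095 FPKM ± 128), and Y82E9BR.3, a c subunit of the ATP synthase (3667 ± 601). F41F3.3, annotated as an uncharacterized protein, was the 11th gene at 3503 FPKM ± 715 and had the widest SD of the 15, with 3328, 2892 and 4289 in libraries 1, 2 and 3. Exons of Y82E9BR.3, rpl-7 and rpl-2 overlap those of other genes, so reads of those loci may have been split.

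**Figure D1:**
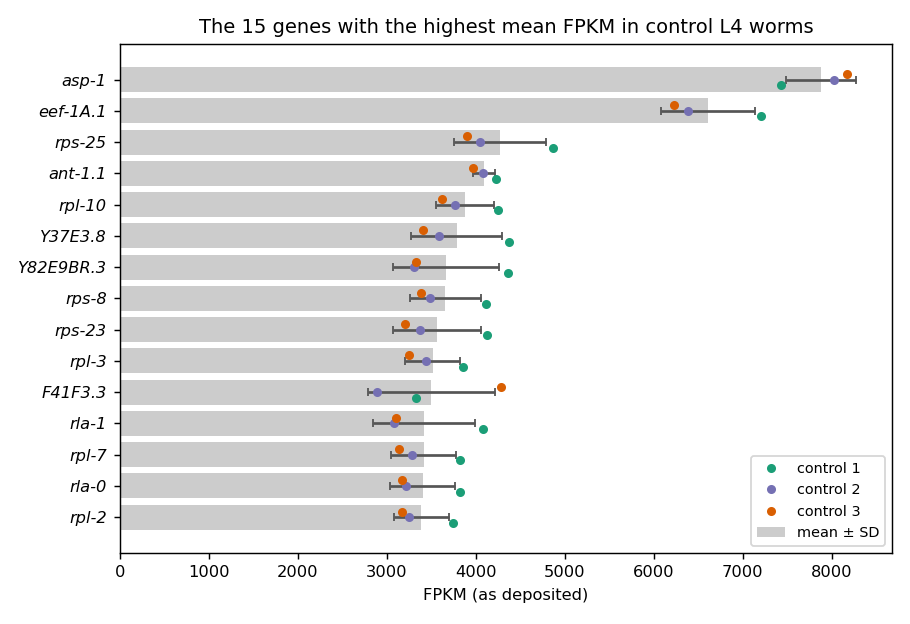
The 15 genes with the highest mean FPKM in the 3 control libraries, with bars for the mean, error bars for the SD and points for each library. The mean falls from 7875 FPKM for asp-1 to 3389 for rpl-2, and the library 1 point lies rightmost for 13 of the 15 genes, with asp-1 and F41F3.3 the exceptions.

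Cytosolic ribosomal proteins, the parts of the ribosome outside its RNA, took the largest share of all gene lists. All 80 were detected, 62 of them were among the top 100 genes, and together they held 24.6% of the summed FPKM in library 1, 22.5% in library 2 and 21.8% in library 3 (22.97% ± 1.496, SD, n = 3). Of the 79 with a mean of at least 5 CPM, 76 were highest in library 1, where 39.3% of all genes of that level were highest. The same genes, whose mRNAs are short, took 11.7% of the counts. The list of 67 nuclear genes of the respiratory chain and ATP synthase held 2.64% ± 0.189 of the summed FPKM. Its highest members were atp-2 (1679 FPKM ± 225) and atp-1 (1519.8 ± 213), both catalytic-head subunits of the ATP synthase. The list leaves out Y82E9BR.3, the c subunit gene named above, which stood higher, so the share does not include that gene. The 12 protein-coding genes of the mitochondrial genome held 1.94% ± 0.191. All 12 were lowest in library 3, where 41.3% of all genes of at least 5 CPM were lowest. One of the 12, WBGene00010958, was not detected and had 4, 4 and 1 counts in libraries 1, 2 and 3. Translation factors held 1.78% ± 0.0727, and glycolysis, with gpd-3 (798 FPKM ± 51.5) in front, held 0.501% ± 0.0268. Proteasome subunits held 0.515% ± 0.0312, with 33 of 33 detected.

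Tissue programmes were judged by marker lists. Body wall muscle was complete, with 37 of 37 sarcomere genes detected and 1.80% ± 0.174 (SD, n = 3) of the summed FPKM. Its highest members were the actin gene act-4 (1959.5 FPKM ± 264, with exons that overlap M03F4.6) and pat-10, which encodes troponin C (1391 ± 150.3). All 14 pharynx genes, 18 of 18 intestine genes and 12 of 12 epidermis genes were detected as well. In whole worms, fewer cells of a type and less RNA per cell cannot be told apart, so a share says nothing on how many cells a tissue has. Of the muscle genes, 35 of 37 were highest in library 1, where 39.3% of all genes were. In contrast, 11 of 18 aspartyl and cathepsin B-like protease genes were highest in library 2, where 21.6% of all genes were. Of these 18, 10 were lowest in library 1, where 39.6% of all genes were.

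Digestive enzymes of the gut lumen and lysosome were the largest tissue programme after the cuticle. The 25 aspartyl and cathepsin B-like protease genes held 3.03% ± 0.450 of the summed FPKM, with 2.51%, 3.32% and 3.26% in libraries 1, 2 and 3. Most of it came from asp-1, asp-6 (3300.0 FPKM ± 384) and the cathepsin B-like gene cpr-1 (3253 FPKM ± 1092). The level of cpr-1 was 2168 CPM in library 1, 4248 in library 2 and 4099.9 in library 3, so library 1 had about 1.96-fold less than library 2. Lysozymes and saposin-like proteins, which act on bacterial walls and membranes, held 1.05% ± 0.103, and the saposin-like gene spp-5 alone stood at 2129 FPKM ± 98.7. C-type lectins, a family of sugar-binding proteins, were uneven: 96 of 240 were detected, and clec-63 (2349.8 FPKM ± 109) and clec-50 (514 ± 25.3) stood far above the list's median of 0.464.

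The cuticle was the most prominent tissue product of these larvae. The 156 genes named col, nearly all of them cuticle collagens, held 4.08% ± 0.379 of the summed FPKM, with 78.2% of them detected and col-125 highest (2355 FPKM ± 306, overlapping best-7). Other named cuticle collagens added 1.07% ± 0.0887, chiefly dpy-4 (2023 FPKM ± 203), dpy-13 (1739.6 ± 164) and dpy-5 (1699 ± 182), whose loss makes worms short and fat. The 6 furrow collagens, which lie in the circular grooves of the cuticle and are made early for each new cuticle, were all detected at a joint 0.117% ± 0.00998. Molting effectors, the enzymes and matrix proteins of cuticle exchange, numbered 25 of 25 detected, with mlt-8 at 250.3 FPKM ± 11.1 and noah-2, an apical matrix protein, at 232 ± 43.9. All 8 transcription factors of the molting clock were detected, from nhr-25 (5.99 FPKM ± 1.87) to myrf-1 (76.0 ± 6.91). The heterochronic regulators, which set the order of larval stages, were detected in 11 of 11 cases and led by lin-42, the worm relative of the Period clock gene (124 FPKM ± 3.04).

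Neurons were visible at lower levels. All 18 pan-neuronal genes were detected, with a joint 0.0739% ± 0.00134, and snb-1, the synaptobrevin of synaptic vesicles, was highest at 194 FPKM ± 13.9. The peptide-processing enzymes egl-21 and egl-3 were at 137 FPKM ± 4.36 and 102 ± 1.43. Among neuropeptides, 30 of 31 FMRFamide-like genes and 65 of 71 neuropeptide-like genes were detected, led by flp-14 (89.6 FPKM ± 4.24) and nlp-33 (348 ± 22.6), which encodes an antimicrobial peptide of the epidermis. Chemoreceptor GPCRs, each typically made by few sensory neurons, were mostly below the threshold: 20 of 1308 were detected and their median was 0.0168 FPKM. Small tissues were nevertheless seen, with 7 of 9 glia genes, 8 of 8 excretory canal genes, 3 of 3 coelomocyte genes, 11 of 12 somatic gonad genes and 10 of 11 vulva genes detected. The vulva genes ran from ceh-2 (0.773 FPKM ± 0.323), the undetected one, to vab-23 (12.3 ± 1.78).

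Of the male and early embryo genes a single one passed the threshold, while germ line, sperm and oocyte genes were detected. Among 8 genes of male-specific neurons and the mating plug, cwp-4 was detected, at 1.45 FPKM ± 0.240, and its exons overlap mlk-1. None of 8 early embryo zygotic genes was detected, the highest being med-2 at 0.631 FPKM ± 0.640, with 0.210, 0.316 and 1.37 in libraries 1, 2 and 3. All 36 germ line and meiosis genes were detected, led by car-1 (228 FPKM ± 18.3) and cgh-1 (188 ± 35.3), both of them parts of germ line RNA granules. Sperm genes were well represented: 30 of 31 major sperm protein genes and 41 of 47 other spermatogenesis genes were detected, with msp-36 at 211 FPKM ± 88.2. All 27 oogenesis and eggshell genes were detected too, led by the eggshell proteoglycan gene cpg-2 (74.9 FPKM ± 22.6). Vitellogenins were low, with vit-6 at 15.9 FPKM ± 10.5 and a joint 0.00411% ± 0.00235 of the summed FPKM. All 4 genes of the dauer list were detected, but 3 of them, col-40, col-2 and cut-1, averaged 6.24, 5.90 and 3.10 FPKM, and lea-1, a desiccation protein gene with exons that overlap acl-2, stood at 203 ± 54.7.

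**Figure D2:**
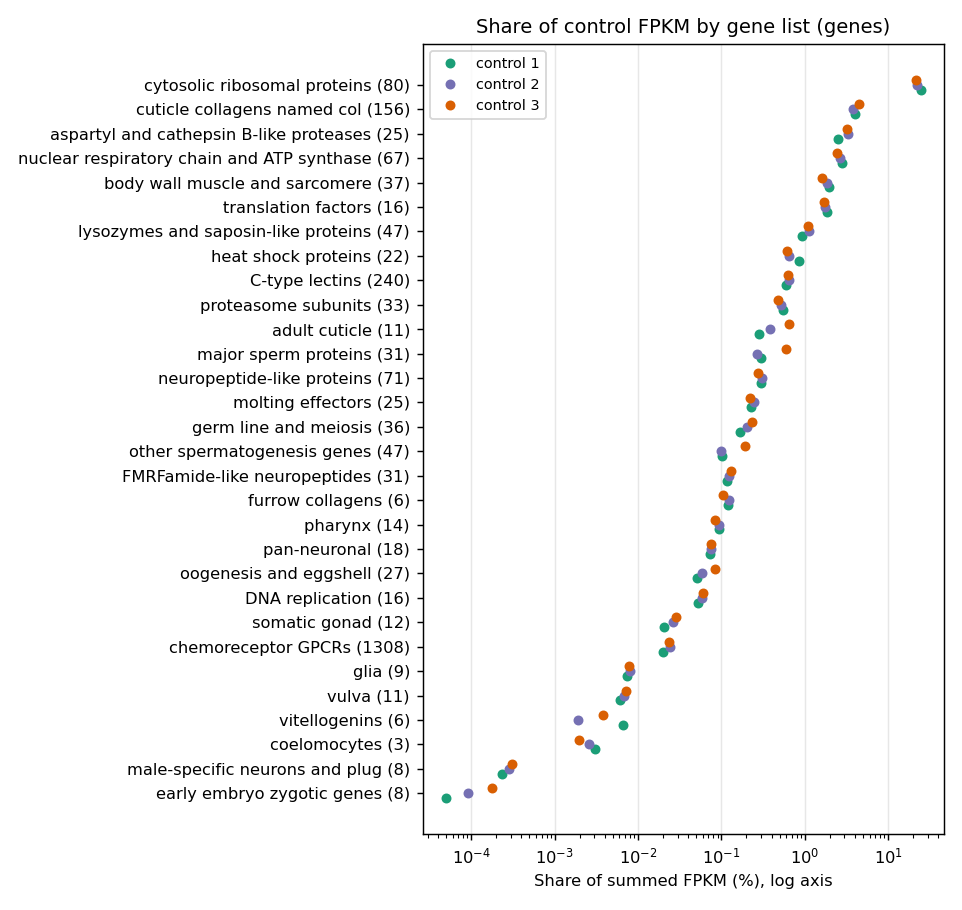
Share of the summed FPKM (percent, log axis) held by selected gene lists in control libraries 1, 2 and 3, with the number of genes in each list in brackets. Cytosolic ribosomal proteins lie between 21.8% and 24.6%, and the largest gaps between libraries among lists over 0.1% are those of the adult cuticle, from 0.281% to 0.655%, and the major sperm proteins, from 0.267% to 0.598%.

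Non-coding RNA was a minor part of these libraries, which were made from poly(A) RNA. Ribosomal RNA took 0.666% ± 0.0649 (SD, n = 3) of the counts, pseudogenes 0.437% ± 0.0457, ncRNA genes 0.191% ± 0.0405 and lincRNA genes 0.0565% ± 0.00353. Of 15363 piRNA loci, 214 were detected, and of 7764 ncRNA loci, 94. The piRNA loci together took 0.00202% of the counts, and 0 of them reached a mean of 5 CPM. Their detected calls thus rest on few reads, because FPKM divides by gene length and these loci are short. Long non-coding RNAs included lep-5, which acts in the timing of larval development, and tts-1, which associates with ribosomes in long-lived strains. The lncRNA lep-5 was steady at 783, 814 and 759.5 FPKM in libraries 1, 2 and 3, while tts-1 stood at 364, 727 and 1145. In CPM, tts-1 was 261 in library 1, 520.3 in library 2 and 803 in library 3, a 3.08-fold range. Histone genes were detected in 34 of 72 cases, and the highest was his-72, a histone H3.3 gene (295 FPKM ± 10.4).

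Chromosomes differed in how many of their coding genes were on. Worm autosomes are densest in broadly used genes near their centres, and chromosome V carries many large families of receptors and other fast-changing genes. The detected share of coding genes was 81.6% on chromosome III, 78.4% on I, 70.6% on IV, 67.8% on X, 66.4% on II and 52.5% on V. Hermaphrodites have a pair of X chromosomes whose transcription is lowered by a dosage compensation complex in the soma and largely silenced in the germ line. The median level of detected X genes, over that of detected autosomal genes, was 0.748 in library 1, 0.726 in library 2 and 0.654 in library 3 (0.710 ± 0.0492, SD, n = 3, from 1852 X genes and 11637 autosomal genes). Library 3 had the lowest ratio, and there 30 of 36 germ line and meiosis genes were highest, beside 39.1% of all genes. Without the germ line lists the ratio was 0.714, but these lists hold too few of the genes to move a median much. What part germ line RNA has in the ratio was not tested.

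Spread between the controls was described for the 10651 genes with a mean of at least 5 CPM. The highest library was at least 2-fold above the lowest for 600 of them (5.63%) and at least 4-fold for 58. The median gene had a highest-to-lowest ratio of 1.26, and 4118 genes (38.7%) stayed under 1.2. Of the 600 genes, 364 were highest in library 3, 210 in library 1 and 26 in library 2, which are 3.42%, 1.97% and 0.244% of the 10651. The commonest orders were highest in 3 and lowest in 1 (243 genes), the reverse (194 genes), and highest in 3 and lowest in 2 (121 genes). Without library 3 the count was 94, without library 1 it was 235 and without library 2 it was 479, so most of the wide ranges lay between libraries 1 and 3. Low levels were not the whole of it: 8.03% of genes between 5 and 20 CPM, 3.87% between 20 and 100 CPM, 4.54% between 100 and 1000 CPM and 3.16% above 1000 CPM were 2-fold apart.

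**Figure D3:**
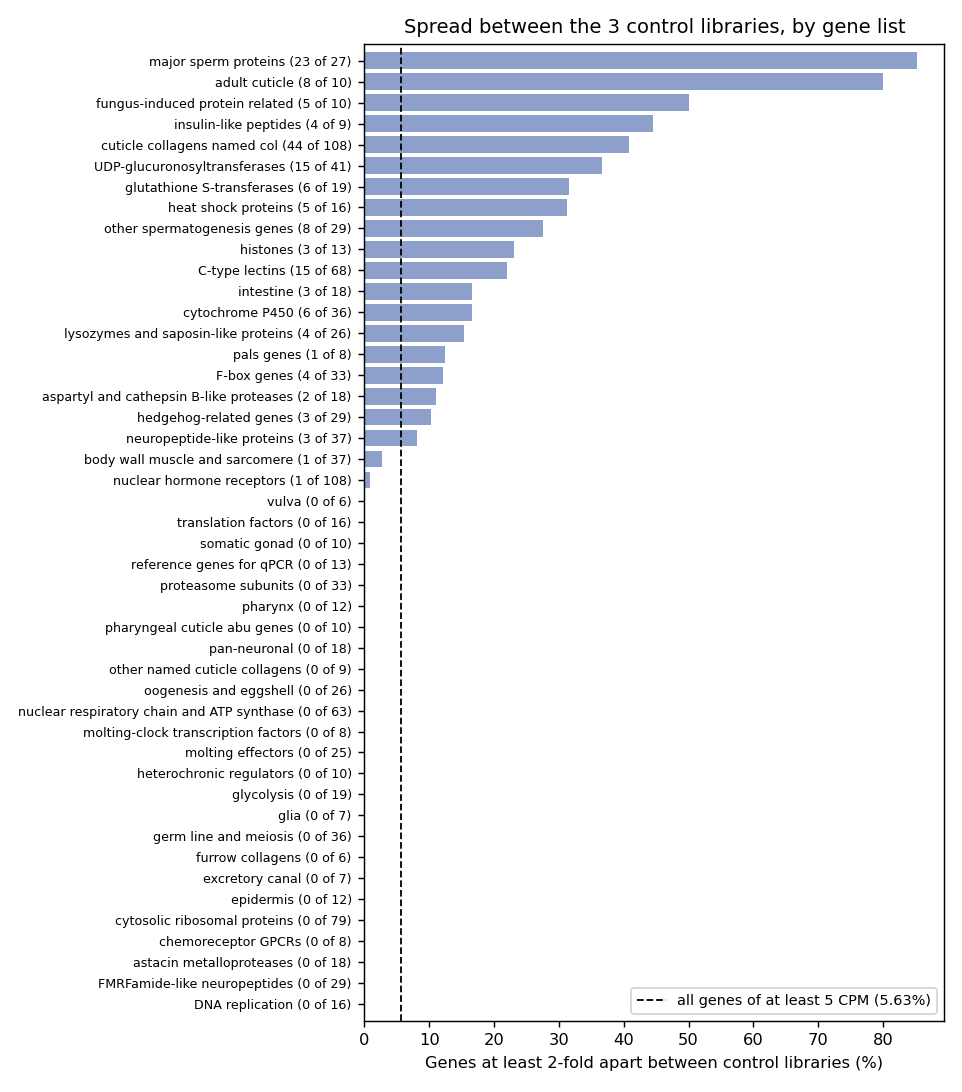
Percent of genes at least 2-fold apart between the highest and lowest control library, for each list with at least 5 genes of at least 5 CPM, with the counts in brackets. The dashed line is the share over all such genes, 5.63%. Major sperm proteins (85.2%) and the adult cuticle (80.0%) stand farthest to the right, and 25 lists, those of ribosomal and pan-neuronal genes among them, have no such gene.

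The genes with the widest ranges were cuticle collagens. Among col genes, 44 of 108 were at least 2-fold apart, beside 5.63% of all genes. Of the 44, 31 were highest in library 3 and lowest in library 1, 2 were highest in 3 and lowest in 2, and 11 were highest in library 1 and lowest in library 3. Without library 3 the count was 4, and without library 1 it was 31. The widest spread relative to the mean was that of col-40 (chromosome II, 1104942 to 1106964), with 0.751 CPM in library 1, 1.91 in library 2 and 16.9 in library 3. The gene col-2 was at 0.723, 1.62 and 14.6 CPM, and col-43 at 2.98, 10.8 and 60.5 CPM. In each of these genes library 3 stood alone and library 2 lay between. At higher levels, col-139 (chromosome V, 4652863 to 4653971) was at 45.1, 74.3 and 306 CPM, and col-81 at 35.1, 54.96 and 208 CPM, which are 6.79-fold and 5.93-fold ranges. Library 1 was instead highest and library 3 lowest in col-149 (298, 112.9 and 59.5 CPM) and, among the most abundant collagens, in col-10 (1674, 1110.4 and 805.6 CPM) and col-166 (1923, 1359 and 943 CPM). So the col genes did not move as a block: library 3 was high for one set and low for another. Of the 6 furrow collagens none was past 2-fold, their median range was 1.29 beside 1.26 for all genes, and dpy-8 was at 342, 344 and 283 CPM.

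Adult cuticle genes, a list mostly of col genes together with bli-1 and bli-2, were all highest in library 3. The 10 genes of at least 5 CPM were all highest there, beside 39.1% of all genes. Of the 10, 8 were at least 2-fold above the lowest library, beside 5.63% of all genes. The collagen gene col-138 was at 654 CPM in library 1, 776 in library 2 and 1457 in library 3, and col-38 at 612, 829 and 1260.0 CPM. The adult collagen col-19, which is used as a reporter of the passage to adulthood, was at 21.5, 19.9 and 71.7 CPM. For col-19 libraries 1 and 2 were close and library 3 stood alone, whereas for col-38 library 2 lay between the others. Without library 3, 1 of these genes was 2-fold apart, and without library 1, 4 were. The hedgehog-related gene grl-25 was also highest in library 3, with 0.863, 2.38 and 17.1 CPM. Its family did not share this: 3 of 29 hedgehog-related genes were at least 2-fold apart, a small count to set beside 5.63% of all genes. Of the 3, 2 were highest in library 1 and lowest in library 3.

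Sperm genes formed the most uniform block. Major sperm protein genes encode the cytoskeletal protein of the crawling sperm. All 27 were highest in library 3 and lowest in library 2, beside 39.1% and 19.1% of all genes. At least 2-fold apart were 23 of the 27, beside 5.63% of all genes. The gene msp-55 was at 15.05 CPM in library 1, 13.8 in library 2 and 37.3 in library 3, and msp-53 at 44.7, 38.2 and 95.4 CPM. Libraries 1 and 2 were close and library 3 stood alone, and without library 3 the count of 2-fold genes was 0. Without library 2 it was 6 and without library 1 it was 23. Copies of these genes are nearly identical, so reads may have been split between them and the 27 genes are not independent. Among 29 other spermatogenesis genes, 26 were highest in library 3, beside 39.1% of all genes, and 8 were at least 2-fold apart, beside 5.63%. These 8 included ssq-2 (99.2, 74.3 and 179 CPM) and ssq-1 (67.8, 54.4 and 134.6 CPM). Without library 3 or without library 2 this count was 0.

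Oocyte and other germ line genes had the same top library but narrower ranges. All 26 oogenesis and eggshell genes were highest in library 3, beside 39.1% of all genes. None was 2-fold apart, a count too small to differ clearly from the 5.63% of all genes. The eggshell genes cpg-2 (104.4, 110.5 and 172 CPM) and perm-4 (33.6, 34.6 and 61.3 CPM) again put libraries 1 and 2 close together. Of 36 germ line and meiosis genes, 30 were highest in library 3, none past 2-fold, with cgh-1 at 353, 425 and 504 CPM and syp-1, a protein of the synaptonemal complex whose exons overlap F13A7.14, at 28.1, 36.1 and 44.1 CPM. The adult cuticle, sperm and oocyte lists thus shared library 3 as their highest, as did 33 of the 44 col genes past 2-fold and all 3 genes of the dauer list with at least 5 CPM, among them col-40 and col-2. These sets overlap, because the adult cuticle and dauer lists contain col genes. The vitellogenins, also genes of the adult, did not share library 3: all 4 of at least 5 CPM were highest in library 1. Whether these libraries differed in age within L4 was not tested, because the labels give a single time of about 46 h.

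**Figure D4:**
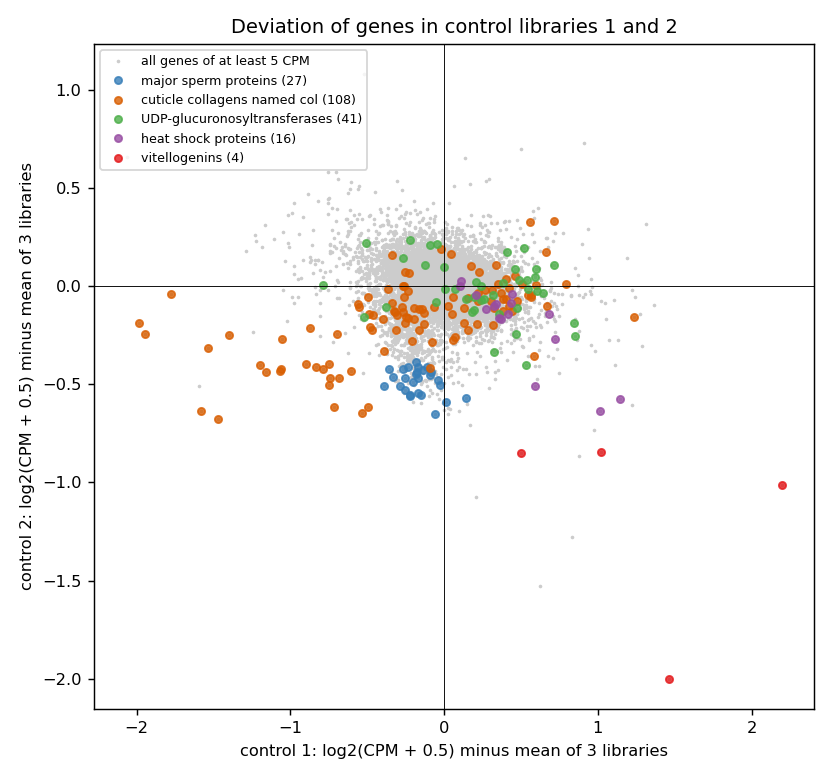
Log2 of CPM plus 0.5, minus the gene's mean over the 3 control libraries, in library 1 (x axis) and library 2 (y axis), for all genes of at least 5 CPM in grey and 5 gene lists in colour. Points to the lower left are highest in library 3, as are the 27 major sperm protein genes and many col genes, while the 16 heat shock genes and 4 vitellogenin genes lie to the right, highest in library 1.

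Yolk and heat shock genes were highest in library 1. All 4 vitellogenin genes with at least 5 CPM were 2-fold apart, beside 5.63% of all genes, and highest there, beside 39.3% of all genes. The gene vit-1 (chromosome X, 7727889 to 7733168) was at 34.7 CPM in library 1, 3.31 in library 2 and 2.89 in library 3, vit-6 at 142, 38.6 and 61.6 CPM, and vit-2 at 84.95, 33.0 and 76.3 CPM. Library 1 stood alone for vit-1, whereas libraries 1 and 3 were near each other for vit-2. On the per-length scale the vitellogenin means lay between 0.393 FPKM (vit-4) and 15.9 FPKM (vit-6), and some vit genes are close copies, between which reads may have been split.

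All 16 heat shock protein genes of at least 5 CPM were highest in library 1, where 39.3% of all genes were, and 5 were at least 2-fold apart, beside 5.63% of all genes. The small heat shock genes hsp-16.2 (chromosome V, 1804334 to 1804957) and hsp-16.41 encode chaperones that worms induce under heat and other stress. They stood at 141, 44.7 and 53.6 CPM and at 108, 32.3 and 32.4 CPM in libraries 1, 2 and 3. The mitochondrial chaperonin hsp-60 was at 513, 291 and 220.2 CPM, and hsp-70 at 155, 72.3 and 97.2 CPM. Constitutive chaperones leaned the same way, with hsp-1 at 3984, 2748 and 2686 CPM and hsp-90, whose exons overlap C47E8.4, at 4082, 2846 and 2775 CPM. In each of these 6 genes libraries 2 and 3 were closer to each other than to library 1. Without library 1 none was 2-fold apart, without library 3 the count was 3 and without library 2 it was 4.

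Detoxification and immune families also spread between libraries. UDP-glucuronosyltransferases, which attach sugar to foreign and internal compounds, had 15 of 41 genes at least 2-fold apart, beside 5.63% of all genes. Of these, 13 were highest in library 1 and lowest in library 3, and 2 had the opposite order. Within this family ugt-62 was at 105.7, 71.6 and 49.9 CPM and ugt-22 at 83.6, 40.7 and 29.2 CPM. Glutathione S-transferases had 6 of 19, beside 5.63% of all genes. Of the 6, 5 were highest in library 1 and lowest in library 3, and 1 was highest in library 2 and lowest in library 1. In this family gst-38 was at 18.1, 5.67 and 3.34 CPM and gst-10 at 85.1, 51.9 and 32.3 CPM. Library 1 was the highest of the 3 for the 4 genes named, and without it the counts were 0 for both families, against 2 and 3 without library 3. Cytochrome P450 genes had 6 of 36, beside 5.63% of all genes. Of the 6, 5 were highest in library 3, 4 of them lowest in library 1, and 1 was highest in library 1. Among them cyp-37B1, whose exons overlap F28G4.2, was at 40.7, 79.0 and 116 CPM and cyp-13A5 at 3.23, 4.43 and 10.2 CPM. Without libraries 1, 2 and 3 in turn the P450 counts were 3, 4 and 1.

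Among immune families, C-type lectins had 15 of 68 genes past 2-fold, beside 5.63% of all genes. Of the 15, 8 were highest in library 1 and lowest in library 3, 5 had the opposite order and 2 were highest in library 2. The gene clec-4 was at 38.9, 27.4 and 10.7 CPM. Their count was 3 without library 1 and 4 without library 3. Of the fungus-induced peptide genes, 5 of 10 were 2-fold apart, beside 5.63% of all genes, and fipr-21 was at 148, 101 and 71.8 CPM. Without library 3 this count was 0, without library 1 it was 2, and from a mean of 20 CPM it was 1. Lysozyme and saposin-like genes went both ways, with spp-17 at 159, 44.6 and 44.1 CPM and spp-2 at 78.9, 203 and 241 CPM, and 4 of 26 past 2-fold, beside 5.63% of all genes, a count that was 0 without library 1 and 2 without library 3. The infection response gene irg-8 (chromosome V, 415870 to 417706) had one of the widest ranges above 100 CPM, at 357, 173 and 61.8 CPM.

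Metabolic and intestinal genes with wide ranges included several outside any family block. The gene folt-2, a folate-like transporter, was at 97.3, 34.9 and 15.2 CPM, and acox-1.2, an acyl-CoA oxidase of peroxisomal fat breakdown, at 198, 83.3 and 36.5 CPM. F46F2.3, a gene of a glutamine- and asparagine-rich protein, was at 262, 107 and 48.3 CPM. These 3 genes were highest in library 1 and lowest in library 3, the order of 194 genes. The opposite order held for lipl-3, a lysosomal lipase gene, at 1.14, 10.3 and 17.7 CPM. The intestinal list had 3 of 18 genes past 2-fold, a small count to set beside 5.63% of all genes. They were act-5, the actin of the gut brush border (1710.4, 1288 and 830.4 CPM), pept-1, the oligopeptide transporter (241, 195 and 90.5 CPM), and ftn-1, a ferritin gene (5.87, 6.53 and 13.9 CPM), and none of them was without library 3. Above 1000 CPM, 5 genes in all were 2-fold apart: col-10, col-166, col-71 (743, 926 and 1562 CPM), act-5 and adh-1, an alcohol dehydrogenase gene, at 1979, 3487 and 4098 CPM. Ethanol was present at 0.01% in all 3 control libraries.

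**Figure D5:**
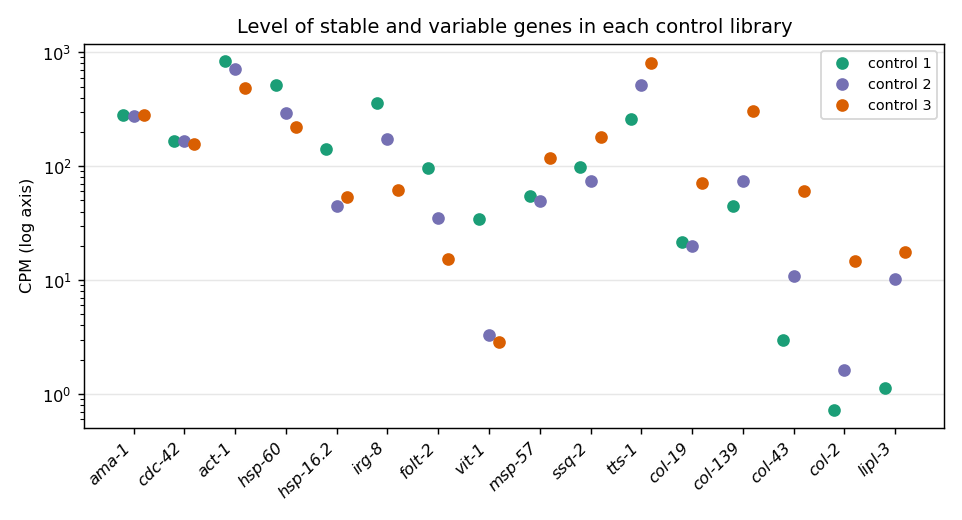
Level (CPM, log axis) of 16 genes in control libraries 1, 2 and 3. The points of ama-1 and cdc-42 nearly coincide, hsp-16.2, irg-8, folt-2 and vit-1 are highest in library 1, and msp-57, ssq-2, tts-1, lipl-3 and the col genes are highest in library 3.

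Several lists held no gene of wide range. No gene passed 2-fold among 79 cytosolic ribosomal proteins, 63 nuclear respiratory genes, 33 proteasome subunits, 16 DNA replication genes, 25 molting effectors, 10 heterochronic regulators, 18 pan-neuronal genes or 29 FMRFamide-like genes, beside 5.63% of all genes. For the lists of 33 genes or fewer, a count of 0 is too small to differ clearly from that share. One of 108 nuclear hormone receptors did. The median highest-to-lowest ratio was 1.16 for FMRFamide-like genes, 1.12 for DNA replication, 1.28 for ribosomal proteins and 1.32 for respiratory genes, beside 1.26 for all genes. The neuropeptide gene flp-9 was at 52.6, 52.5 and 50.9 CPM, and egl-3 at 265, 259 and 261 CPM. Respiratory genes shared an order, with 59 of 63 highest in library 1, as were 32 of 33 proteasome subunits, beside 39.3% of all genes.

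Other lists of these kinds did hold such genes. Insulin-like peptides, ligands of the DAF-2 receptor, had 4 of 9 past 2-fold, beside 5.63% of all genes, 2 of them highest in library 1 and 2 in library 3. Of these, ins-35 was at 10.2, 4.10 and 2.30 CPM and ins-11 at 2.78, 7.84 and 12.4 CPM, and the count was 0 without library 1 and 2 without library 3. Neuropeptide-like proteins had 3 of 37 (8.11%), a small count near the 5.63% of all genes. All 3 were highest in library 1 and lowest in library 3, and the count was 1 from a mean of 20 CPM. Among them, nlp-29, an antimicrobial peptide gene of the epidermis, was at 16.5, 9.25 and 6.18 CPM. None of the list was 2-fold apart without library 1 or without library 3. Histone genes had 3 of 13, a small count to set beside 5.63% of all genes. All 3 were highest in library 3 and lowest in library 1, with his-5 at 3.09, 5.72 and 11.2 CPM. The histone count was 1 without library 1 and 1 without library 3, and histone copies are nearly identical.

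At the stable end, the difference between libraries was no larger than counting noise for 697 of the 10651 genes (6.54%), and for 25 of 1796 coding genes above 100 CPM (1.39%). The most stable of these were plpp-1.1, a phospholipid phosphatase gene, at 144.9, 145.0 and 145.2 CPM, and T21H3.1, a lipase-like gene, at 1418, 1411 and 1415 CPM. The large subunit of RNA polymerase II, ama-1 (chromosome IV, 4248070 to 4258169), was at 281, 277 and 281 CPM. The late endosome GTPase gene rab-7, the splicing gene cdc-5L and the poly(A)-binding protein gene pab-2 were among the 10 most stable as well, and exons of rab-7 overlap W03C9.5.

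Genes used to normalise qPCR ranged from very stable to wide. The narrowest were ama-1 (1.01-fold), idhg-1 (1.04-fold), rbd-1 (1.04-fold) and cdc-42 (1.05-fold), followed by iscu-1 and pmp-3 (both 1.11-fold) and gpd-3 (1.14-fold), although exons of idhg-1, cdc-42 and pmp-3 overlap other genes. The tubulin gene tba-1 had a 1.31-fold range and eif-3.C a 1.48-fold range. The actin gene act-1 was at 831, 714 and 489.6 CPM, a 1.70-fold range that was wider than that of 87.7% of all genes of at least 5 CPM. Other muscle genes went the same way, so that 35 of 37 sarcomere genes were highest in library 1, beside 39.3% of all genes. The widest, tni-1, a troponin I gene, was at 160, 93.4 and 63.6 CPM.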

How the data were processed

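Whole L4 worms were measured by paired-end (150 bp) sequencing of poly(A) RNA. The authors deposited raw read counts per gene and FPKM values for the same libraries; only the 3 control columns of each table were used. The submitters' processing notes name featureCounts 2.0.6, HISAT2 2.2.1, DESeq2 1.42.0 and CASAVA, with no settings. The strand setting was not given in the sources used here, nor were the genome build and the treatment of multi-mapping reads. Of 46987 features, 46926 had coordinates of WBcel235 in Ensembl release 115, which coordinates in the text follow; 61 had no name. Counting can split reads of overlapping genes and near-identical copies. Within each library, count per length over deposited FPKM was constant to 6.54e-07 percent or better for genes with over 50 counts. That constant was 0.958, 1.02 and 1.03 times the total count in libraries 1, 2 and 3, so the FPKM carry a scaling between libraries other than total count.

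Counts were scaled with TMM factors (0.949, 1.01 and 1.04) of edgeR 4.0.16 in R 4.3.3, and summarised with pandas 2.3.3 in Python 3.11.15. A library at 0 was set to 3 counts for a range. Excess variation is the CV with counting noise, the inverse of the mean count, removed. No test was made: the single group has no contrast, and a precision from 3 libraries is limited. The spread measures were tested on simulated data.

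The control libraries, 52 gene lists (414 of 415 symbols found) and the rules were chosen with earlier results of these data known. Named genes were the 15 of highest FPKM, per list the 2 highest and 2 most variable, the 20 most variable, the 10 most variable and 10 most stable above 100 CPM, qPCR reference genes, and members of lists of 8 or fewer. Other genes, and the mitochondrial, neighbour, domain and prefix sets, were named after their values were seen. Alternatives were DESeq2 1.42.0 size factors, total count, other thresholds and pseudocounts, and leaving out each library.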

Additional observations from a re-analysis of the deposited data

How the results depend on the processing

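No paired analysis was possible because a single group was used and no test was made. Shares depend on length: as a share of counts, the 100 genes held 21.5% in place of 33.4%, and ribosomal proteins 11.7% in place of 22.97%. Genes at least 2-fold apart numbered 4716 with no minimum beyond 1 count and 257 from 20 CPM, against 600; leaving out one library gave 94 to 479, where a range over fewer libraries cannot be wider. Lists above the share of all genes numbered 19 of 46, and 11 to 19 with one library left out; C-type lectins, adult cuticle, col and cytochrome P450 were above in each setting. The X to autosome ratio was 0.644 from 0.5 FPKM, against 0.710. Scaling by total count moved medians by up to 0.134 log2 between libraries and gave 729 genes, and DESeq2 size factors gave 592. Under another scaling, the highest library changed for 11 of 46 lists: DNA replication, FMRFamide-like, neuropeptide-like, insulin-like, pan-neuronal, glia, epidermis, astacin, furrow collagen, other named collagen, and lysozyme and saposin-like genes. The order of libraries 3 and 1 was reversed in 0 of 38 values. These came only from lists whose libraries 3 and 1 lay farther apart than the scalings can shift them, so no reversal was possible. Of 322 member counts, 239 stayed within 1.5 times, where a count of 0 in both settings was taken as unchanged. Many of the 239 were such counts of 0, so the total says little on lists that held 2-fold genes. With 3 libraries, a range rests on single samples, and the cause of these changes was not tested.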

Other observations

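Fat and food genes outside the lists also differed between controls; the genes here were chosen after their values were seen. Of 6 lipl genes, which encode lipases, 3 were at least 2-fold apart, beside 5.63% of all genes, and all 3 were highest in library 3 and lowest in library 1. Of these, lipl-1 was at 49.1, 129 and 157 CPM in libraries 1, 2 and 3, and lipl-2 at 84.2, 186 and 226 CPM. The pud genes, named for their protein's rise in dauer larvae and in daf-2 mutants, lie within a few kilobases on chromosome V and did not move as one. There pud-1.2 was at 15.8, 39.1 and 28.3 CPM, whereas pud-3 was at 235.2, 233.3 and 209.6 CPM. Genes named dod, for downstream of the insulin-like receptor pathway, had 4 of 6 past 2-fold, beside 5.63% of all genes. Among them, dod-17 was at 25.4, 10.99 and 5.39 CPM and dod-3 in the opposite order at 22.3, 40.1 and 72.7 CPM. By protein domain, 35 of 58 genes with an MSP domain were at least 2-fold apart, beside 5.63% of all genes. Of the 35, 33 were highest in library 3 and lowest in library 2, and this set contains the msp genes described above.

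Genes that varied often lay beside each other. Of the 600 genes at least 2-fold apart, 25.7% had a neighbour on the chromosome that was also 2-fold apart, beside 9.73% of the other genes. Of the 88 neighbouring pairs in which both varied, 55 had the same highest and lowest library. Overlapping genes and tandem copies were not removed, and their part in this count was not tested. How often pairs of varying genes that are not neighbours match was not counted. A few orders held most of the 600 genes, so some pairs would match in any case. Proteins annotated as uncharacterized made up 1927 coding genes; 1142 were detected, they held 3.20% ± 0.343 (SD, n = 3) of the summed FPKM, and 39 of 651 (5.99%) were 2-fold apart, beside 5.63% of all genes. From the mitochondrial genome, an rRNA gene listed as WBGene00014472 was at 23.7, 55.5 and 85.2 CPM, while the mRNA of COX3, a subunit of cytochrome c oxidase, was at 2806, 2299.7 and 1989 CPM in the opposite order. Another rRNA gene of that genome, WBGene00014454, was nearly flat at 30.0, 34.2 and 32.2 CPM, so the rRNA genes did not share an order.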
